A study of Homo sapiens with 4 samples.

Results

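MM.1S, an established human multiple myeloma line, carries a translocation that joins the MAF gene on chromosome 16 to the immunoglobulin heavy chain locus, and its MAF expression is driven from there. The genes described are MAF, the genes it is known to switch on in myeloma (CCND2, ITGB7, NUAK1 and CCR1), the other D-type cyclin genes CCND1 and CCND3, and the kinase genes CDK4 and CDK6. They were chosen by name, with earlier results of these data known, and every probe set annotated to them was read. These were 9 of 19775 genes with a probe set, with 26 probe sets in all, of which 0 were shared with another gene. Cells were grown with the vehicle DMSO, as the control, or with 250 nM MLN4924 for 8, 16 or 24 h, and 1 Affymetrix array was made of each condition. MLN4924 blocks the NEDD8-activating enzyme, which the cullin-RING ubiquitin ligases need in order to be active. All groups come from the same line, and no culture time was given for the control.

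MAF is a basic leucine zipper transcription factor that binds a palindrome built from the core TGCTGA. In myeloma with MAF translocations it switches on the gene of cyclin D2 and genes for adhesion to the marrow stroma. D-type cyclins bind CDK4 or CDK6, and the active kinase phosphorylates the retinoblastoma protein, which frees E2F factors to switch on the genes of DNA replication. Myeloma cells commonly depend on a single D-type cyclin, chosen by the translocation they carry.

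There were no replicates, so no test between conditions was run, and each difference below compares single arrays. Technical spread was read from genes with several measured probe sets, as the pooled SD of the log2 differences among probe sets of a gene, which was 0.16, 0.19 and 0.18 for 8, 16 and 24 h against control. It leaves out the spread between cultures. A probe set counted as measured where its geometric mean intensity over the 4 arrays was above 93.9, the median of all probe sets, and 12446 genes had such a probe set. Intensities are on a linear scale, and levels of different probe sets are not compared. The 3' to 5' intensity ratio of GAPDH lay between 1.18 and 1.21 and that of ACTB between 1.95 and 2.21 over the 4 arrays. The 10 plasma cell markers, among them SDC1, PRDM1 and JCHAIN, were all measured, with summed intensities of 65783 on the control array and 59034, 64141 and 63776 at 8, 16 and 24 h. Of the markers of other cells, 1 of 4 with a probe set for B cells (CD22), 2 of 6 for T and NK cells (CD3E and CD3G), 1 of 5 for myeloid cells (S100A9) and 2 of 6 for stromal and erythroid cells (COL1A1 and HBB) were measured. Their summed intensities lay between 461 and 510, between 414 and 461, between 424 and 435, and between 1539 and 1727. These sums are set only against the same sum on the other arrays. HBB lay between 995 and 1219, and no defining marker of these 4 sets was listed at 0. The markers of plasma cells were thus present in the labelled myeloma line, and the part of the other markers in the results was not tested.

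Promoters of 7 of the 9 genes were found in RefSeq's table of assembly GRCh38.p14. Those of CCND1 and CCND2 were absent from it and were not searched. Of those found, 2 are shown, that of MAF as the gene of the factor itself and that of CDK4 for its 3 E-boxes. The MAF promoter is the 250 bases before the start, at chr16:79600738-79600987 on the minus strand. It has the reverse complement of the MAF core TGCTGA in capitals, 22 bases before the start. The CDK4 promoter, at chr12:57752311-57752560 on the minus strand, has the E-box CACGTG, the site of MYC and its partner MAX, in capitals at 216, 196 and 101 bases before the start.
MAF: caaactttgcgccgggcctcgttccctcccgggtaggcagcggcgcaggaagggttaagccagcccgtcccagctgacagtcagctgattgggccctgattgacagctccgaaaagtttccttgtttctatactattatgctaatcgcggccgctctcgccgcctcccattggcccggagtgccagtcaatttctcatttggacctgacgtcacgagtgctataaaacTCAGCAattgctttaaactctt
CDK4: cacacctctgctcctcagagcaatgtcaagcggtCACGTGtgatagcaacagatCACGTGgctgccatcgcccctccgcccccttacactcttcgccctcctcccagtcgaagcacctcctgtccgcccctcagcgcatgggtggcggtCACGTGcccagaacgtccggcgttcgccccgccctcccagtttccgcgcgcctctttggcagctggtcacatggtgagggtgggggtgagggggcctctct

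Searched on both strands over windows of 300 bases, TGCTGA was in 17.3% of 35116 RefSeq promoters. Among the 10 promoters of these genes it was in 2, that of MAF and 1 of the 3 of CCND3. The AP-1 core TGACTCA, which overlaps the MAF palindrome, was in 4.95% of all promoters and in 0 of the 10. CACGTG was in 7.26% of all promoters and in 2 of the 10, that of CDK4 and 1 of the 2 of CDK6. At least 3 copies of CACGTG were held by 0.0940% of all promoters. The MAF promoter also holds TGACGTCA, the cyclic AMP response element, which was in 1.85% of all promoters. CACGTG and TGACGTCA were added to the search after the promoters had been read. A match is a run of letters, and binding was not measured.

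**Figure D1:**
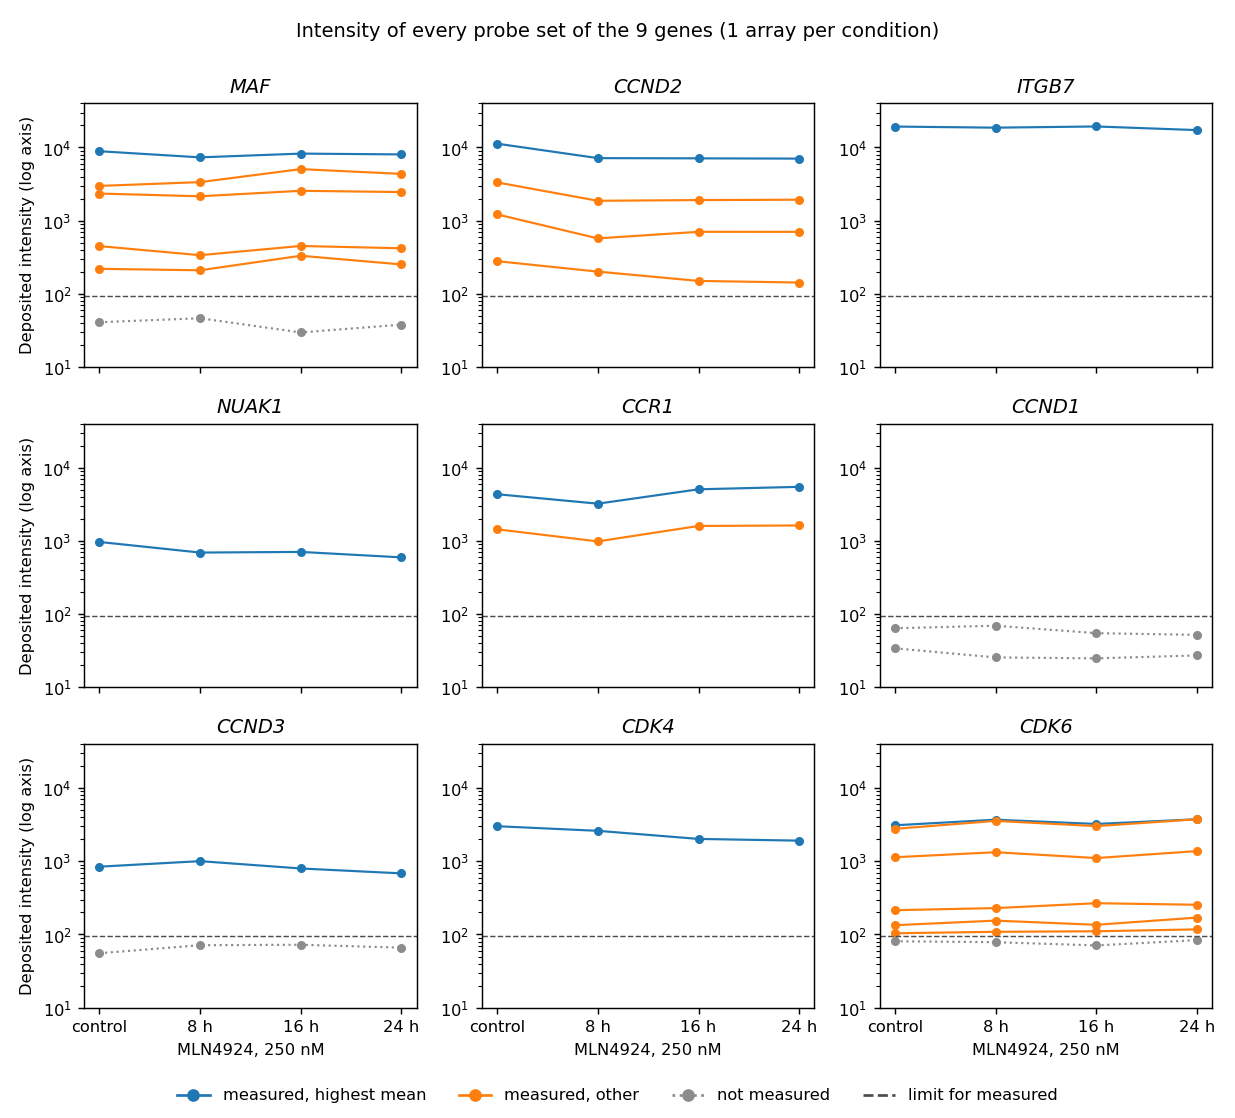
Deposited intensity (log axis) of every probe set of the 9 genes on the control array and after 8, 16 and 24 h of 250 nM MLN4924, 1 array each, with the probe set of the highest mean in blue, other measured ones in orange and unmeasured ones dotted in grey. The 4 probe sets of CCND2 are lower on each treated array than on the control array, and both of CCND1 lie under the dashed limit at 93.9.

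MAF itself was close to its control level in its brightest probe set, while other probe sets of the gene were higher at 16 and 24 h. The gene spans chr16:79202622-79600737, and 5 of its 6 probe sets were measured. The brightest, 209348_s_at, had an intensity of 8882 on the control array and 7324, 8239 and 8035 at 8, 16 and 24 h. These are log2 differences of -0.28, -0.11 and -0.14, of which that at 8 h was larger than the pooled SD. The probe set 206363_at read 2982 on the control array and 3358, 5057 and 4355 at 8, 16 and 24 h, or 0.17, 0.76 and 0.55 on the log2 scale. It was thus 1.70-fold higher at 16 h than on the control array. The probe set 209347_s_at also was highest at 16 h, with 220 on the control array and 210, 331 and 252 at 8, 16 and 24 h. The other 2 measured probe sets, 229327_s_at and 1566324_a_at, stood at 0.13 and 0.0067 (log2) at 16 h. Over the 5 probe sets the log2 differences ran from -0.41 to 0.17 at 8 h, from -0.11 to 0.76 at 16 h and from -0.14 to 0.55 at 24 h, so at 16 h they were spread over 0.87. MAF has more than 1 RefSeq transcript, and which of them each probe set reads was not tested. What the 5 have in common is that each was higher at 16 h than at 8 h, by 0.17 to 0.66, and lower at 24 h than at 16 h, with log2 steps between -0.39 and -0.036. The step from 8 to 16 h of the brightest probe set was within the pooled SD of 0.18 between those arrays. From 16 to 24 h, only 206363_at and 209347_s_at had steps beyond the pooled SD of 0.14. In bulk RNA, fewer cells with a transcript and less of it per cell cannot be told apart, here or below.

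CCND2, the cyclin gene that MAF switches on, was lower at each time in all 4 of its probe sets. It lies at chr12:4273762-4305353. Its brightest probe set, 200953_s_at, had an intensity of 11264 on the control array and 7149, 7098 and 7040 at 8, 16 and 24 h. The treated arrays are close to each other and all below the control, with log2 differences of -0.66, -0.67 and -0.68, so that the level was 1.58-fold lower at 8 h and 1.60-fold lower at 24 h. The steps between treated arrays, -0.010 from 8 to 16 h and -0.012 from 16 to 24 h, were smaller than the pooled SD. Among all 12446 measured genes, those with a lower difference than CCND2 numbered 81, 218 and 167 at the 3 times. The probe set 200951_s_at had 3330 on the control array and 1867, 1910 and 1931 at 8, 16 and 24 h. For 200952_s_at the values were 1217 on the control array and 572, 704 and 703 at 8, 16 and 24 h, which at 8 h is 2.13-fold lower. The dimmest, 231259_s_at, had 279 on the control array and 201, 150 and 143 at 8, 16 and 24 h. Between 8 and 16 h this last probe set differed by -0.42 (log2) and 200952_s_at by 0.30, while the 2 brightest differed by less than the pooled SD of 0.18. The log2 differences of the 4 probe sets ran from -1.09 to -0.47 at 8 h, from -0.90 to -0.67 at 16 h and from -0.97 to -0.68 at 24 h.

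NUAK1 was the other MAF target that was lower at each time. It encodes an AMPK-related kinase, also called ARK5, that in myeloma is linked to invasion, and lies at chr12:106063345-106138954. Its 1 probe set, 204589_at, had an intensity of 969 on the control array and 694, 709 and 597 at 8, 16 and 24 h. The log2 differences were -0.48, -0.45 and -0.70, each larger than the pooled SD. At 24 h NUAK1 was 1.62-fold lower, and 146 of the 12446 genes had a lower difference. The level at 24 h was also below that at 16 h, with a log2 step of -0.25, beyond the pooled SD of 0.14 between those arrays.

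CCR1 had a dip at 8 h and was above the control later. It encodes a receptor for CCL3, CCL5 and related chemokines and lies at chr3:46201711-46208313. The probe set 205098_at had 4353 on the control array and 3233, 5081 and 5489 at 8, 16 and 24 h, or -0.43, 0.22 and 0.33 on the log2 scale. The second probe set, 205099_s_at, had 1443 on the control array and 986, 1604 and 1629 at 8, 16 and 24 h, or -0.55, 0.15 and 0.17. Both have the same order, with 8 h lowest, then the control, 16 h and 24 h. The later differences of the second probe set were within the pooled SD. Between 8 and 16 h, a step that does not use the control array, CCR1 was 1.57-fold higher in the brighter probe set and 1.63-fold higher in the other.

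ITGB7 stayed near its control level. It encodes the integrin beta 7 chain, which pairs with the alpha 4 or alpha E chain in adhesion, and lies at chr12:53191323-53207251. Its 1 probe set, 205718_at, had 19294 on the control array and 18640, 19355 and 17265 at 8, 16 and 24 h. The log2 differences of -0.050, 0.0046 and -0.16 were all within the pooled SD. The level at 24 h was below that at 16 h by more than the pooled SD of 0.14 between those arrays, with a log2 step of -0.16, and the other neighbours in the order of levels cannot be told apart. The 4 MAF targets thus had 3 patterns on the same arrays: lower throughout (CCND2 and NUAK1), lower at 8 h only (CCR1) and within the technical spread of the control (ITGB7).

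**Figure D2:**
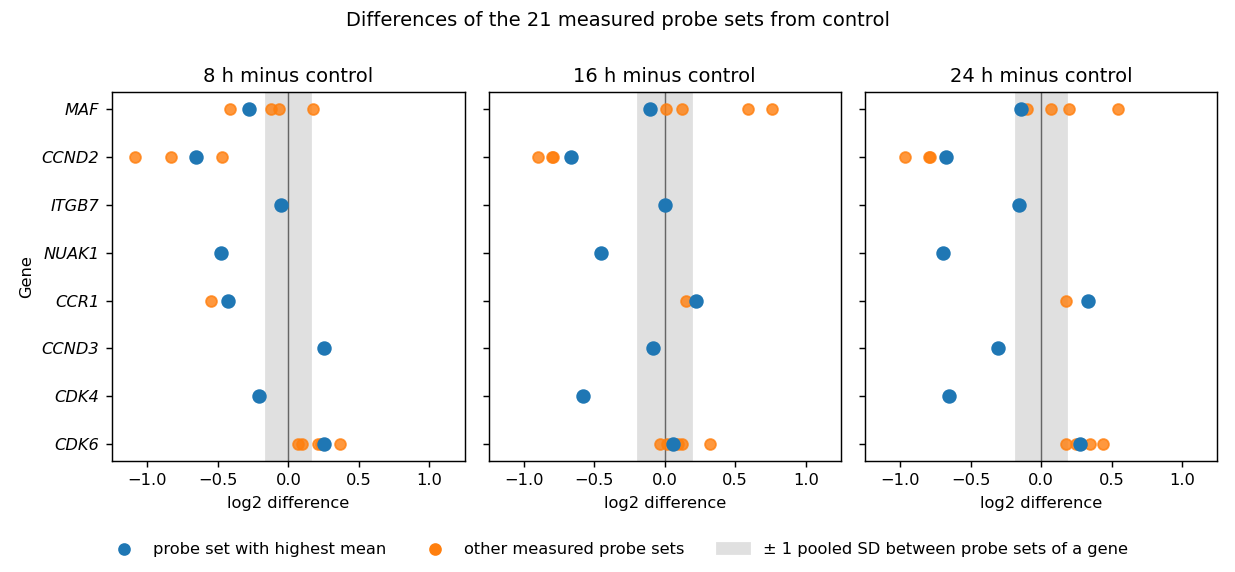
Log2 difference of each measured probe set from control at 8, 16 and 24 h, 1 array each, with genes down the page, the probe set of the highest mean in blue, others in orange and ± 1 pooled SD between probe sets of a gene in grey. All 4 probe sets of CCND2 lie left of the grey band at each time, and those of MAF are spread from -0.11 to 0.76 at 16 h.

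Of the other D-type cyclin genes, CCND1 lay under the limit on each array and CCND3 was above the control at 8 h and below it at 24 h. CCND1, which other myelomas switch on by translocation, was not measured: its probe set 208711_s_at had 64.2 on the control array and 69.5, 55.0 and 52.1 at 8, 16 and 24 h. Its other probe set, 208712_at, lay between 24.9 and 34.1, under the floor of 48.4 on all 4 arrays, so no fold is given. CCND3, at chr6:41934933-42050035, had 844 on the control array and 1005, 798 and 684 at 8, 16 and 24 h in the probe set 201700_at. The log2 differences were 0.25, -0.082 and -0.30, of which the first and the last were larger than the pooled SD. The step from 8 to 16 h was -0.33 and that from 16 to 24 h was -0.22. Its second probe set, 1562028_at, was not measured, with values between 55.4 and 72.3.

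The 2 kinase genes stood on opposite sides of the control, CDK4 below it at each time and CDK6 above it at 8 and 24 h. CDK4, at chr12:57747727-57752310, had an intensity of 3016 on the control array and 2609, 2022 and 1914 at 8, 16 and 24 h in its 1 probe set, 202246_s_at. Each treated array is lower than the one before it, with log2 differences from control of -0.21, -0.58 and -0.66, although the step of -0.079 from 16 to 24 h was within the pooled SD. At 24 h CDK4 was 1.58-fold lower, and 193 of the 12446 genes had a lower difference. The gene of MYC, whose motif stands in the CDK4 promoter shown above, was near its control level at 0.039, 0.035 and -0.065 (log2). MYC protein was not measured, and a link between MYC and the level of CDK4 was not tested. CDK6, at chr7:92604921-92836573, had 7 probe sets, of which 6 were measured. The brightest, 224851_at, had 3106 on the control array and 3701, 3236 and 3753 at 8, 16 and 24 h, or 0.25, 0.059 and 0.27. All 6 measured probe sets were above the control at 8 h and at 24 h, by 0.067 to 0.36 and by 0.18 to 0.44, and 5 of 6 were above it at 16 h. At 16 h only 207143_at was beyond the pooled SD of 0.19. At 8 and 24 h, 19.7% and 27.9% of all measured genes differed from control by more than CDK6 did. The 16 h array was the lowest of the treated arrays in 4 of the 6 probe sets. The probe set 207143_at, with 215 on the control array and 229, 267 and 255 at 8, 16 and 24 h, was highest at 16 h. Over all measured genes, 62 had a 16 h level at least 0.5 (log2) under those of both neighbouring times, and 0 of the genes described here were among them.

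None of the 8 measured genes was 2-fold from control in its brightest probe set at any time, when 0.249%, 0.675% and 0.707% of all measured genes were so at 8, 16 and 24 h. At a limit of 1.5-fold, 1 of the 8 was lower at 8 h (CCND2), 1 at 16 h (CCND2 again) and 3 at 24 h (NUAK1, CCND2 and CDK4), and 0 were higher. Of all measured genes 1.12%, 2.73% and 2.31% were 1.5-fold lower at the 3 times, and 0.731%, 2.24% and 2.85% higher. By probe set, 1 of 21 was 2-fold lower at 8 h, the CCND2 probe set 200952_s_at, against 0.121% of 22237 measured probe sets. The median difference of the 8 genes was -0.24, -0.095 and -0.23 at 8, 16 and 24 h, beside 0.0071, 0.026 and 0.016 over all measured genes. Below the control lay 6, 5 and 6 of the 8, when 48.3%, 45.7% and 47.4% of all measured genes did. The genes were chosen with earlier results of these data known, so these counts and medians describe them and are not a test. These comparisons share 1 control array, so a high or low reading on it would enter all of them. Between 8 and 16 h, without that array, 1 of the 8 genes was 1.5-fold higher (CCR1) and 0 were lower, when 1.86% and 1.61% of all genes were, and 4 of 8 were higher by any amount, as were 52.9% of all genes. Between 16 and 24 h, 0 of the 8 genes were 1.5-fold apart, when 0.739% of all genes were higher and 0.0884% lower by that much, and 6 of 8 were lower by any amount, as were 54.5% of all genes.

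**Figure D3:**
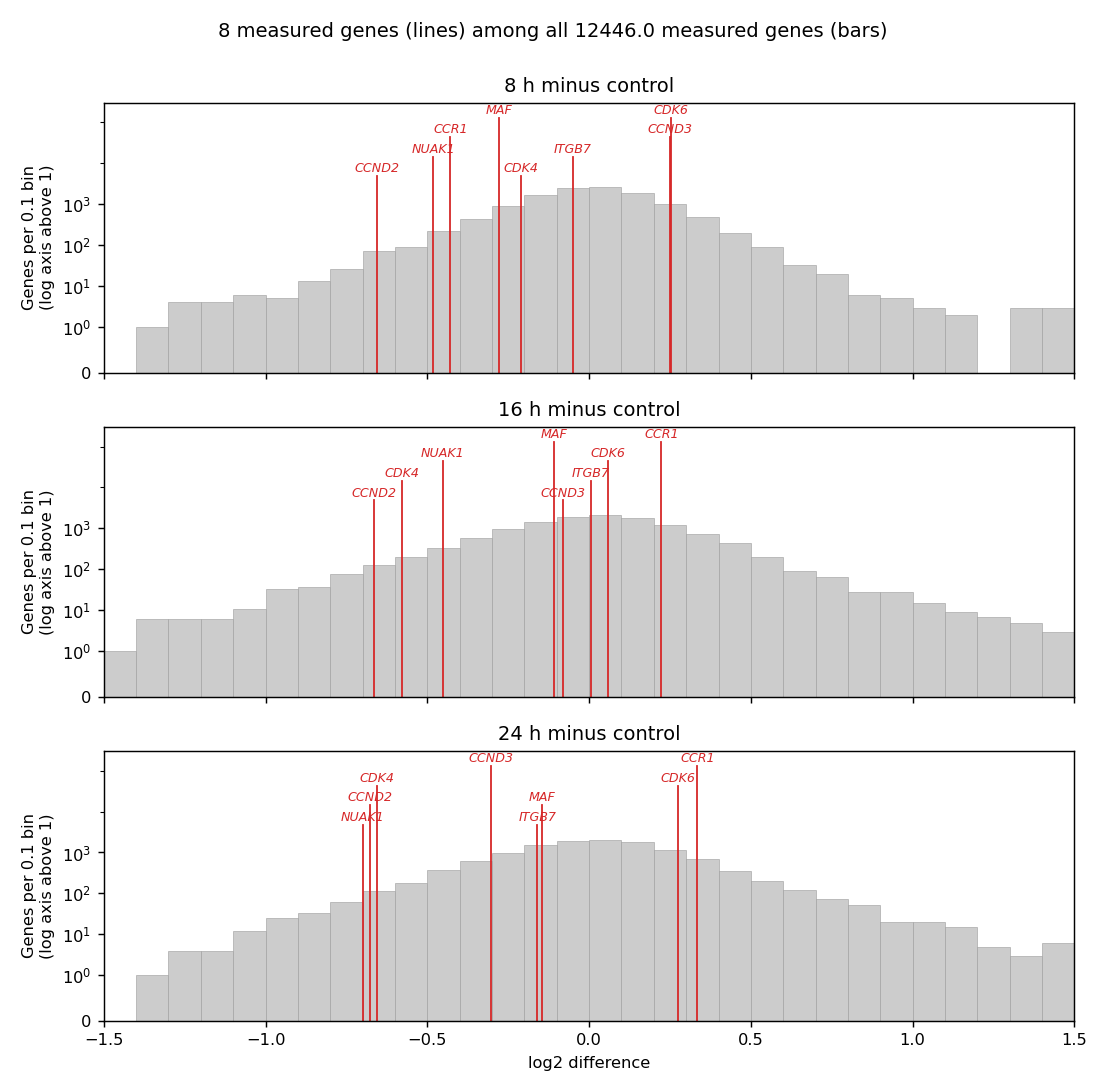
Number of measured genes (bars, 0.1-wide bins, log axis above 1) by log2 difference from control at 8, 16 and 24 h, 1 array each, with the 8 measured genes as red lines at the values of their brightest probe sets. Differences beyond 1.5 either way are not drawn, and CCND2, NUAK1 and CDK4 lie in the low tail at 24 h, between -0.70 and -0.66.

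Genes with difference profiles like those of MAF and CCND2 were sought over the 3 treated arrays, by the Euclidean distance of the log2 differences from control. For MAF, read by its brightest probe set, the nearest were LINC01569 at a distance of 0.021, CHSY1, a chondroitin synthase gene, at 0.024, and PLGRKT, a plasminogen receptor gene, at 0.028. As 957 genes lay within 0.2 of MAF, its profile was a common one. For CCND2 the nearest were ASAP2, which encodes a GTPase-activating protein for ARF, at 0.053, XK, a membrane protein gene, at 0.069, and FBXO4 at 0.098, and 18 genes lay within 0.2. FBXO4 encodes an F-box protein described as a receptor for the breakdown of cyclin D1. Its intensity was 305 on the control array and 203, 183 and 194 at 8, 16 and 24 h, or -0.59, -0.74 and -0.66 (log2).

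Other genes linked to MAF in myeloma were mostly below the control. Of 13 listed, 9 were measured, 7 of them were below the control at each time (6 of these were lowest at 8 h, and ITGAE was lowest at 24 h), and the list's medians were -0.35, -0.23 and -0.25 at 8, 16 and 24 h. At 1.5-fold, 3 of the 9 were lower at 8 h and 0 at 16 and 24 h, while 1 was higher at 24 h. Of all measured genes, 1.12%, 2.73% and 2.31% were 1.5-fold lower at 8, 16 and 24 h, and 2.85% were higher at 24 h. Below the control by any amount lay 48.3%, 45.7% and 47.4% of all measured genes at the 3 times. DEPTOR, an inhibitor of mTOR that is abundant in MAF myelomas, had 4532 on the control array and 2561, 3966 and 3842 at 8, 16 and 24 h, or -0.82, -0.19 and -0.24. ARID5A, an RNA-binding protein gene, stood at -0.65, -0.34 and -0.37, and the chemokine receptor gene CX3CR1 at -0.62, -0.25 and -0.25. CX3CR1 had only 117 on the control array and 76.4 at 8 h, near the limit of 93.9. Between 8 and 16 h, 8 of the 9 were higher, with a median of 0.24 beside 0.015 over all genes. This was not particular to them. Over the same step 9 of 10 plasma cell markers (median 0.14) and 8 of 9 measured regulators of MAF (median 0.10) were higher. Of the 11 measured G1/S genes described below, 0 were.

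The other MAF family genes analysed stood above the control at 16 and 24 h. MAFF and MAFG, which encode small MAF proteins that lack a transactivation domain, stood at 0.039, 0.78 and 0.77 and at 0.63, 0.51 and 0.35 (log2). NRL, a large MAF gene known from photoreceptors, stood at -0.36, 0.17 and 0.55, with only 90.5 on the control array, and its difference at 16 h was within the pooled SD. The list has 6 genes, these 3 were the ones analysed, and its medians were 0.039, 0.51 and 0.55. The genes around MAF on chromosome 16 differed little: of 6 measured, 0 were 1.5-fold apart at any time, with medians of 0.080, -0.055 and -0.038. WWOX, in which translocation breakpoints fall, stood at -0.16, -0.21 and -0.076, with 2 of its 3 other measured probe sets of opposite sign at 16 h. CENPN, a kinetochore gene, was the lowest of them, at -0.018, -0.42 and -0.48 (1 of 2 other measured probe sets was of opposite sign at 8 h), while VAT1L and ADAMTS18 stood at 0.22 and 0.22 at 8 h.

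Genes known to act on MAF protein or its transcription had medians of -0.016, 0.099 and 0.15 over 9 measured of 10. HERC4, a ubiquitin ligase gene, stood at 0.19, 0.43 and 0.49, with 1 of 3 other measured probe sets of opposite sign. USP5, a deubiquitinase gene, stood at 0.16, 0.24 and 0.25, the kinase gene GSK3B at 0.15, 0.23 and 0.20 and MAP2K1, a MEK gene, at 0.12, 0.25 and 0.15. The targets of other myeloma translocations, 5 measured of 8, had medians of 0.039, 0.12 and 0.14. FGFR3 had 122 on the control array and 167, 153 and 165 at 8, 16 and 24 h, IRF4 stood at -0.29, 0.14 and 0.14, with its 1 other measured probe set of opposite sign at 16 and 24 h, and MYEOV at 0.04, 0.12 and 0.23. NSD2 stood at -0.077, -0.43 and -0.58, with 2 of its 5 other measured probe sets of opposite sign at 8 h.

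**Figure D4:**
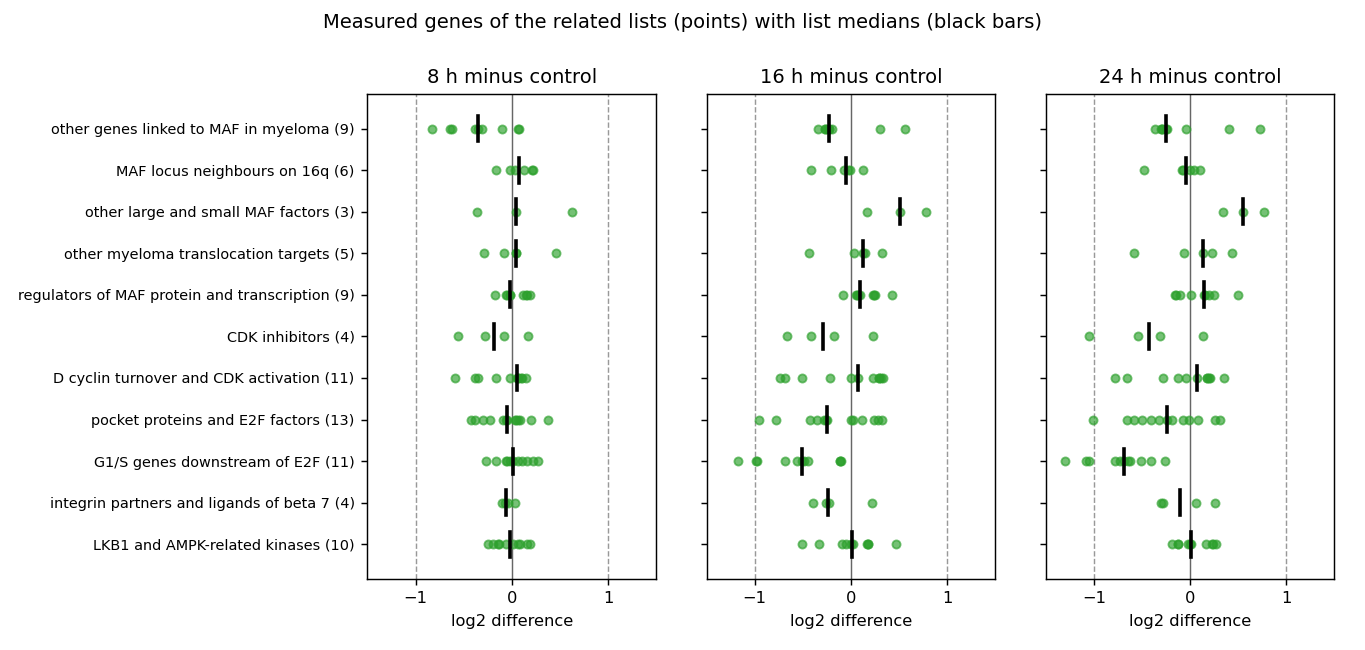
Log2 difference from control at 8, 16 and 24 h, 1 array each, of the measured genes (points, with their number in brackets) of each related list down the page, with list medians as black bars and 2-fold marked by dashed lines. The G1/S list has its median at -0.51 at 16 h and -0.69 at 24 h, and the genes linked to MAF have theirs at -0.35 at 8 h.

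Downstream of the D-type cyclins and their kinases, the G1/S genes were near the control at 8 h and below it later. Their medians over 11 measured of 12 were 0.0079, -0.51 and -0.69 at 8, 16 and 24 h, and 11 of 11 were below the control at 16 h and at 24 h. At 24 h 3 were at least 2-fold lower, MCM5 (-1.30) and MCM2 (-1.05) of the replicative helicase and its loader CDC6 (-1.08), and CDC25A, a phosphatase that activates CDK2, stood at -0.78, with 1 of its 2 other measured probe sets of opposite sign at 16 h. At 8 h, CDC6 stood at -0.26 and MCM2 at -0.17, beside -0.66 for CCND2 and -0.21 for CDK4. At 24 h 0.193% of all measured genes were at least 2-fold lower. Of 13 pocket protein and E2F genes, 3 were above the control at 24 h, with a list median of -0.24. E2F2 was at least 2-fold lower there (-1.01), RBL1, a pocket protein gene, stood at -0.65, E2F8 at -0.59 and E2F1 at -0.50.

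Inhibitors of these kinases were mixed, and 4 of 7 were measured, with medians of -0.18, -0.29 and -0.42. CDKN1A, the p21 gene, had 1324 on the control array and 1092, 834 and 641 at 8, 16 and 24 h, and was 2-fold lower at 24 h (-1.05). CDKN2A, which encodes the CDK4 and CDK6 inhibitor p16, stood at 0.16, -0.41 and -0.54, with 1 of 2 other measured probe sets of opposite sign at 16 and 24 h. CDKN1B, the p27 gene, stood at -0.083, 0.23 and 0.14, and CDKN1C, the p57 gene, at -0.56, -0.17 and -0.31. Among 11 measured of 12 genes for D-type cyclin turnover and CDK activation, with medians of 0.055, 0.073 and 0.074, FBXO4 and CDC25A were the 2 at least 1.5-fold lower at 16 and at 24 h. MNAT1 and CCNH, subunits of the kinase that activates CDKs, stood at -0.51 and -0.22 at 16 h.

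Partners of the MAF targets were read next. The 4 measured of 7 genes for partners and ligands of the beta 7 integrin had medians of -0.055, -0.24 and -0.11. ITGA4, the alpha 4 chain, stood at 0.029, -0.25 and 0.066, with 1 of 3 other measured probe sets of opposite sign at 16 h and 2 at 24 h, and ITGAE, the alpha E chain, at -0.10, -0.23 and -0.30. FN1, which encodes the matrix protein fibronectin, stood at -0.075, -0.39 and -0.28, and 1 of its 4 other measured probe sets was of opposite sign at 24 h. ITGB1, the beta 1 chain, stood at -0.035, 0.22 and 0.26, and both of its other measured probe sets were of opposite sign at 8 h. CCL5 was the 1 measured of 10 listed CCR1 ligands, with 675 on the control array and 479, 335 and 364 at 8, 16 and 24 h, and was 2-fold lower at 16 h (-1.01). CCL5 was thus lower on each treated array, and its receptor CCR1 was above the control on the later ones. Of the kinases related to NUAK1 and their partners, 10 of 12 were measured, with medians of -0.023, 0.0088 and 0.0063, and 0 were 1.5-fold apart. Among them the kinase genes SIK1 and PRKAA1 stood at 0.47 and -0.33 at 16 h (with 1 of 3 other probe sets of PRKAA1 of opposite sign). CAB39, a partner of LKB1, stood at 0.27 at 24 h. PPP1R12A, a myosin phosphatase subunit that NUAK1 phosphorylates, stood at -0.13, -0.51 and 0.00056. At 24 h, 2 other measured probe sets of PPP1R12A were of opposite sign.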

How the data were processed

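Per the labels' protocols, RNA came from Trizol extracts and biotin-labelled cRNA was read on Affymetrix arrays. The deposited values are intensities of 54675 probe sets on a linear scale, and how the authors summarised and normalized them is not given in the sources used here. Array medians differed by at most 0.048 (log2), and no normalization was added. The array annotation gave 1 gene for 41097 probe sets, and Entrez identifiers tied these to RefSeq of GRCh38.p14. Values under 48.4, the 25th percentile, were set to it before taking log2, with Python 3.11.15, numpy 2.4.6 and pandas 2.3.3. Each gene was read by its brightest probe set on average over the arrays, and counted as measured where that average exceeded the median probe set. Groups came from the labels, with 1 array each, so no test was run. The number of arrays limits the precision.

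Genes named were the 9 members, up to 4 measured genes of each list with the largest difference from control, and the 3 genes nearest to MAF and to CCND2. The genes behind some counts of 5 or fewer were also named. 1 gene that this rule names is not reported here. The members and the lists were chosen with earlier results of these data known. The alternatives were the median level over probe sets, no probe sets named _x_at or _s_at, a floor at the 10th percentile, no floor with a pseudocount of 16, no filter or one at the 75th percentile, median centring, quantile normalization and a limit of 1.5-fold. The procedure was tested on simulated data.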

Additional observations from a re-analysis of the deposited data

Results flagged for a closer look

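CCR1 and CCND3 had differences from control of opposite sign at different times, each larger than the pooled SD between probe sets. For CCR1 the difference was 0.22 (log2) at 16 h and -0.43 at 8 h, 0.65 apart, and 0.33 at 24 h, 0.76 apart from 8 h. Its second probe set had the same signs. For CCND3 it was -0.30 at 24 h and 0.25 at 8 h, a change of -0.56 from 8 to 24 h, in its 1 measured probe set. Averaged with its unmeasured probe set, CCND3 stood at 0.31 at 8 h and at -0.026 at 24 h, the latter within the pooled SD. Many genes passed such a limit: 5.15%, 37.2% and 20.0% of all measured genes differed from control by more than CCR1 at 8, 16 and 24 h. By more than CCND3 did, 20.1% differed at 8 h and 23.6% at 24 h. With 1 array at each time, the differences of CCR1 and CCND3 between times were not tested.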

How the results depend on the processing

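Genes at least 2-fold from control numbered 31, 84 and 88 at 8, 16 and 24 h, with 47 between 16 and 8 h and 5 between 24 and 16 h. With a limit of 1.5-fold these counts were 231, 619, 642, 432 and 103. The median level over probe sets gave 52 at 16 h, 57 at 24 h and 30 between 16 and 8 h. A filter at the 75th percentile gave 19 at 8 h, where fewer genes were counted, and leaving out probe sets named _x_at and _s_at gave 2 between 24 and 16 h. Of 310 values recomputed for the 8 measured genes, 299 moved by less than the pooled SD and 12 changed sign. CCND2 and CDK4 have only probe sets named _s_at, so they could not be recomputed without those. MAF stood at 0.17, 0.76 and 0.55 without probe sets named _s_at, which leaves 206363_at as its brightest. Taking each array's median level over all probe sets of a gene, unmeasured ones included, put CCND2 at -0.96 at 8 h, and CDK6 (then read by 207143_at) at 0.32 and CCND3 (then averaged with the unmeasured 1562028_at) at 0.15 at 16 h. The median of the measured probe sets' own differences was -0.75 for CCND2 at 8 h. Of the sign changes, 6 lay in differences from control, of MAF at 8, 16 and 24 h, of MAF and CCND3 at 16 h with that median and of ITGB7 at 16 h with median centring. No paired analysis was possible because each condition has 1 array. The cause of these moves was not tested.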

Other observations

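The plasma cell genes differed little in the same cells. Of 10 markers, 8 were below the control at 8 h and 3 at 24 h, with medians of -0.17, -0.0079 and 0.099 at 8, 16 and 24 h, and 0 were 1.5-fold apart at any time. PRDM1, a master regulator of plasma cells, stood at 0.26, 0.34 and 0.29 (log2), CD38, a surface enzyme, at -0.16, 0.23 and 0.29, CD27, a receptor of the TNF family, at 0.13, 0.25 and 0.31, and MZB1, a chaperone of immunoglobulin, at -0.33, -0.33 and -0.46.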
